A study of Mus musculus with 15 samples.

Results

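The genes described here are 36 genes of the interferon response and of MHC class I antigen presentation, chosen by symbol. Each was represented by the brightest array probe that carried its symbol or an older alias, and 34 of the 36 had such a probe among the 41174 distinct probes of the array. Xaf1 and H2-D1 had none. All 34 passed the filter on dim probes, which 27593 probes passed in all, and are called the members below.

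Whole-heart RNA was measured on Agilent mouse arrays to ask how type 2 diabetes and treatment with rosiglitazone, an insulin-sensitizing agonist of the nuclear receptor PPARγ, alter cardiac gene expression. The 5 control hearts came from C57BL/KLS-leprdb/lepr+ (db/+) littermates, which carry 1 mutant copy of the leptin receptor gene, and the 5 untreated diabetic hearts from C57BL/KLS-leprdb/leprdb (db/db) mice, which carry the mutation on both copies and become obese, insulin resistant and hyperglycemic. The third group of 5 db/db mice received rosiglitazone at 5 mg/kg per day, mixed into the normal chow that all mice ate, for 4 months. Ages were not given in the sources used here, and since obesity, diabetes and the receptor mutation came together in every db/db mouse, they cannot be told apart. Each heart was hybridized with Cy5 on 1 array against a common mouse reference RNA in Cy3, so each value is the log2 ratio of heart to reference, and only differences between hearts are compared. Each array is a separate heart, but treated replicates 3 and 4 differed by a median of only 0.0845 on the log2 scale over all tested probes, against 0.153 to 0.401 in the 29 other pairs of hearts of 1 group, and were averaged and counted as 1 sample, which leaves 14 samples in the tests.

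Interferons are cytokines, and those of type I are released by cells that sense viral or self nucleic acids. Type I interferons signal through the receptor Ifnar and the kinases Jak1 and Tyk2 to a transcription factor complex that holds Stat2 and Irf9 and binds the interferon-stimulated response element (ISRE) in front of genes such as the Oas, Ifit and Mx genes, whereas interferon gamma signals through Ifngr, Jak1 and Jak2 to genes with a gamma-activated site (GAS) and, with the help of Irf1, raises the guanylate-binding and immunity-related GTPases and the immunoproteasome, peptide transporter and heavy chains of MHC class I. Uninfected tissues, the heart included, express many of these genes at a low tonic level.

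The short promoter stretches below show a sequence that several members share, and each is also a gene whose values are given further on. They were picked from genes that hold a match, and members without a match are not shown. The members were chosen as interferon response genes, and the ISRE is an element through which such genes respond. The shares of promoters with a match are therefore not independent of that choice. The stretches were read from the RefSeq promoter table of the GRCm38.p6 assembly, which covers 250 bases before to 50 bases after each gene start. Promoters of 29 of the 36 genes were used, with the first listed start where a gene had several. Ifi27 was left out by choice, since the accession of its probe now belongs to Ifi27l2a. The stretches are written 5′ to 3′ on the strand of the gene. Capitals mark matches, on either strand, to the ISRE core GAAANNGAAA, whose reverse complement is TTTCNNTTTC, and overlapping matches run together.
Oas1a: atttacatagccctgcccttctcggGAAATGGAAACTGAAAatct
Ifit1: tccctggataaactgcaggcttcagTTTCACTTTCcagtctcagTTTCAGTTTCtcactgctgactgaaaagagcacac
Ifit3: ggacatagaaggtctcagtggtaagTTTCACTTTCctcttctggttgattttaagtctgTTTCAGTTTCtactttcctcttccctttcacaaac
Isg15: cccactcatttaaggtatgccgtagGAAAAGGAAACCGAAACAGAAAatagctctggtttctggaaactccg
Bst2: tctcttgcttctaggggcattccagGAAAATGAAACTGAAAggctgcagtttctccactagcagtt
Rsad2: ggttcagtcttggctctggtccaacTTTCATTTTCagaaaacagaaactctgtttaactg
Gbp2: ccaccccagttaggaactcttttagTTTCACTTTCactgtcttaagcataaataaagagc
Igtp: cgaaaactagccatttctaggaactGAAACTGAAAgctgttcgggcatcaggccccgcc
B2m: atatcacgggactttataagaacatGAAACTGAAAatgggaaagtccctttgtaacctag
The stretches lie at chr5:120907526-120907570 (minus strand, ending at the last base before the start), chr19:34640760-34640838 (plus), chr19:34583348-34583441 (plus), chr4:156200850-156200921 (minus), chr8:71537562-71537627 (minus), chr12:26456538-26456597 (minus), chr3:142620579-142620638 (plus), chr11:58199497-58199555 (plus) and chr2:122147523-122147582 (plus), all upstream of the gene start. Isg15 carried 3 overlapping matches, Oas1a and Bst2 carried 2 overlapping ones, and Ifit1 and Ifit3 carried 2 separate ones.

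Of the 29 promoters, 14 held the ISRE core (48.3%), against 1131 of all 32851 promoters in the table (3.44%). The GAS, spelled TTCNNNGAA, was found in 8 of the 29 (27.6%), against 2726 of all promoters (8.3%). The core stood in front of all 3 GTPase genes in the table and of none of the 3 genes of class I antigen processing. It was present in 6 of the 10 tabulated members that were lower in a db/db group in the comparisons that follow (60%), and in 8 of the 17 that were not (47.1%). A match describes letters in this window and no match says only that the letters are not there.

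Compared with db/+ hearts, hearts of untreated db/db mice had lower levels of 13 antiviral genes, among them Oas1a, Oas2, Oasl2, Ifit1, Ifit2, both Mx genes, Isg15 and Usp18, whereas the GTPases and the class I genes did not pass the test. Of the 34 members, 13 were lower in the untreated group at an adjusted p under 0.05 (limma, Benjamini-Hochberg over all 27593 probes), where 3.39% of all tested probes were lower, and none was higher, where 4.37% were higher. In the treated group 11 of the 34 were lower than in db/+, where 4.21% of all tested probes were lower, and none was higher, where 4.49% were. Without adjustment, 16 and 18 members had a p under 0.05, against 25.5% and 26.8% of all tested probes. The median log2 difference of the members was -0.56 in untreated and -0.72 in treated db/db hearts, against 0.01 for all tested probes in both comparisons, and 29 and 34 of the 34 differences were negative. Both comparisons used the same db/+ hearts. These are whole hearts, so fewer cells of a type and less RNA per cell cannot be told apart.

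**Figure D1:**
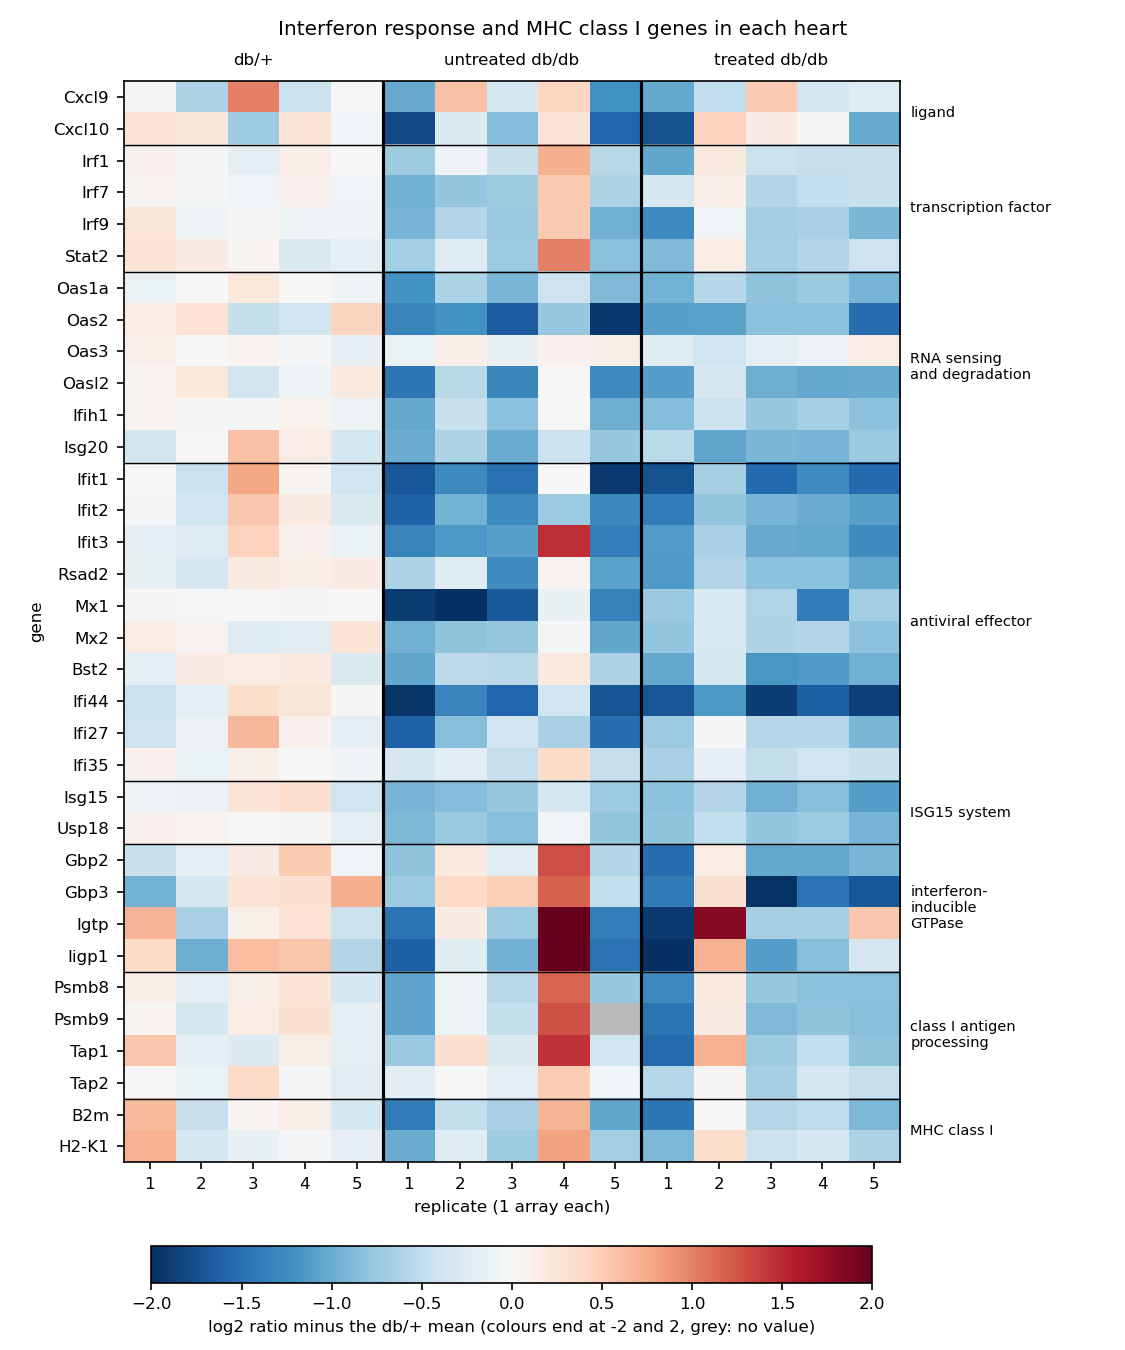
Log2 ratio of each of the 34 members in each of the 15 hearts, minus the gene's mean over the 5 db/+ hearts, as a colour from -2 (blue) to 2 (red), with genes grouped by role. The untreated db/db columns are mostly blue except for replicate 4, which was the highest of its group for 31 members, and the grey cell is a value of Psmb9 left out for an outlier flag.

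The counts depended on single hearts and on the array slides. Leaving out 1 heart at a time gave 7 to 18 members lower in untreated db/db hearts, with 7 without untreated replicate 1 or replicate 5, 8 without untreated replicate 3 or db/+ replicate 4, and 18 without untreated replicate 4. For treated db/db hearts the range was 5 to 16, with 5 without treated replicate 5, 6 without db/+ replicate 4, 7 without treated replicate 1 and 16 without untreated replicate 4, which enters only through the shared estimate of the spread. Without untreated replicate 4, 2.82% and 4.1% of all tested probes were lower, against 3.39% and 4.21% with all hearts. The shares under the other omissions are not given here, so these counts do not separate the members from the whole test. The members lower in untreated db/db hearts under each of the 15 omissions were Oas1a, Oas2, Ifit2, Mx1, Ifi44, Isg15 and Usp18, and those lower in treated hearts under each were Oas1a, Ifit2, Ifi44, Isg15 and Usp18.

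Group and slide were close to confounded. Slide 1 held db/+ replicates 1 to 4, slide 2 held db/+ replicate 5 with untreated replicates 1 to 3, slide 3 held untreated replicates 4 and 5 with treated replicates 1 and 2, and slide 4 held treated replicates 3 to 5. With slide as a fixed block, 0 members passed in either comparison with db/+, and 16 and 4 of all tested probes were lower. The estimate for untreated hearts then rests on slide 2 alone, where 3 untreated hearts met 1 db/+ heart, and that for treated hearts adds the slide 3 difference between treated and untreated hearts, since treated and db/+ hearts shared no slide. The log2 difference in untreated hearts under the block was -0.84 ± 0.26 (SE, adjusted p = 0.362) for Oas1a, -1.85 ± 0.45 (adjusted p = 0.188) for Oas2 and -1.64 ± 0.47 (adjusted p = 0.322) for Ifi44. It was smaller than without the block for Isg15, at -0.45 ± 0.23 (adjusted p = 0.7), Isg20, at -0.52 ± 0.33, and Ifi27, at -0.76 ± 0.52, and larger for Mx2, at -1.10 ± 0.34 (adjusted p = 0.354). Over all 34 members these within-slide differences had a median of -0.58 in untreated hearts, with 32 below 0, and of -0.99 in treated hearts, with 34 below 0. The treated figures depend on untreated replicate 4, 1 of the 2 untreated hearts on slide 3. Its mean over the members, centred on the 14 samples, was 0.91, against -0.57 in untreated replicate 5. Treated replicates 1 and 2 on that slide had -0.72 and 0.25. The within-slide differences use the same hearts as the comparisons above and are no separate support for them.

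Of the members called, 9 were lower in both db/db groups (Oas1a, Oas2, Ifih1, Isg20, Ifit1, Ifit2, Ifi44, Isg15 and Usp18), 4 in untreated hearts alone (Oasl2, Mx1, Mx2 and Ifi27) and 2 in treated hearts alone (Rsad2 and Bst2). Of all tested probes, 3.39% were lower in untreated and 4.21% in treated hearts, and the share lower in both was not counted. The 15 genes of these sets are the called members. The test of treated against untreated hearts passed for none of these members, as described further on.

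Of the 6 sensors and RNA-degrading enzymes, 5 were lower in untreated and 4 in treated db/db hearts, where 3.39% and 4.21% of all tested probes were. Their median log2 differences were -0.79 and -0.81. Oas1a, Oas2 and Oas3, neighbours on chromosome 5, encode synthetases that make oligoadenylates on double-stranded RNA and so activate RNase L. Oas1a had log2 ratios of -0.51, -0.39, -0.18, -0.37 and -0.47 in the db/+ hearts, -1.59, -1.02, -1.30, -0.80 and -1.27 in the untreated db/db hearts, and -1.33, -0.96, -1.19, -1.13 and -1.31 in the treated db/db hearts. Every db/db heart was below every db/+ heart. The log2 difference of Oas1a was -0.81 ± 0.14 (SE) in untreated hearts (adjusted p = 0.00372) and -0.80 ± 0.14 in treated hearts (adjusted p = 0.00564). Oas2 showed the same order of groups. Oas2 had log2 ratios of 0.54, 0.67, -0.10, -0.01 and 0.83 in the db/+ hearts, -0.93, -0.83, -1.28, -0.38 and -1.55 in the untreated db/db hearts, and -0.70, -0.68, -0.45, -0.45 and -1.13 in the treated db/db hearts. Neither db/db group overlapped the db/+ hearts, and the log2 differences of -1.38 ± 0.23 (SE, adjusted p = 0.00398) and -1.13 ± 0.25 (adjusted p = 0.0157) correspond to 2.6-fold and 2.18-fold lower levels. Oas3 differed from both. Its log2 ratios spanned -1.07 to -0.79 in db/+ hearts, -1.04 to -0.76 in untreated and -1.30 to -0.75 in treated db/db hearts, and its log2 differences of 0.01 ± 0.11 (SE, adjusted p = 0.951) and -0.16 ± 0.11 (adjusted p = 0.407) did not pass. Oas2 and Oas3 each had a second probe, below the filter.

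Oasl2 is an Oas-like protein, Ifih1 (MDA5) senses long double-stranded RNA in the cytoplasm, and Isg20 is an exonuclease that degrades RNA. Oasl2 had log2 ratios of 0.35, 0.53, -0.06, 0.22 and 0.51 in the db/+ hearts, -1.13, -0.25, -1.01, 0.30 and -0.94 in the untreated db/db hearts, and -0.79, -0.03, -0.67, -0.72 and -0.70 in the treated db/db hearts. Untreated replicate 4 stood within the db/+ range and the treated replicate 2 was at its lower edge. Its log2 difference passed in untreated hearts, at -0.92 ± 0.26 (SE, adjusted p = 0.0453), and not in treated hearts, at -0.86 ± 0.27 (adjusted p = 0.0639). Ifih1 had log2 ratios of 1.31, 1.20, 1.21, 1.30 and 1.12 in the db/+ hearts, 0.21, 0.79, 0.40, 1.21 and 0.25 in the untreated db/db hearts, and 0.37, 0.80, 0.48, 0.56 and 0.41 in the treated db/db hearts. All db/db hearts but 1 were below the db/+ hearts, the exception being untreated replicate 4. Its log2 differences were -0.66 ± 0.17 (SE, adjusted p = 0.033) and -0.71 ± 0.18 (adjusted p = 0.0292), but a second, dim probe of Ifih1 did not pass in either comparison (adjusted p = 0.337 and 0.589). With normexp background correction and loess the brightest probe gave only -0.24 (adjusted p = 0.479) and -0.28 (adjusted p = 0.467). Isg20 had log2 ratios of -1.38, -1.03, -0.43, -0.86 and -1.37 in the db/+ hearts, -2.01, -1.63, -2.01, -1.45 and -1.78 in the untreated db/db hearts, and -1.56, -2.05, -1.93, -1.94 and -1.75 in the treated db/db hearts. No db/db heart reached the db/+ range, the log2 differences being -0.76 ± 0.18 (SE, adjusted p = 0.0242) and -0.81 ± 0.19 (adjusted p = 0.022). Its second probe was lower in both comparisons as well.

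**Figure D2:**
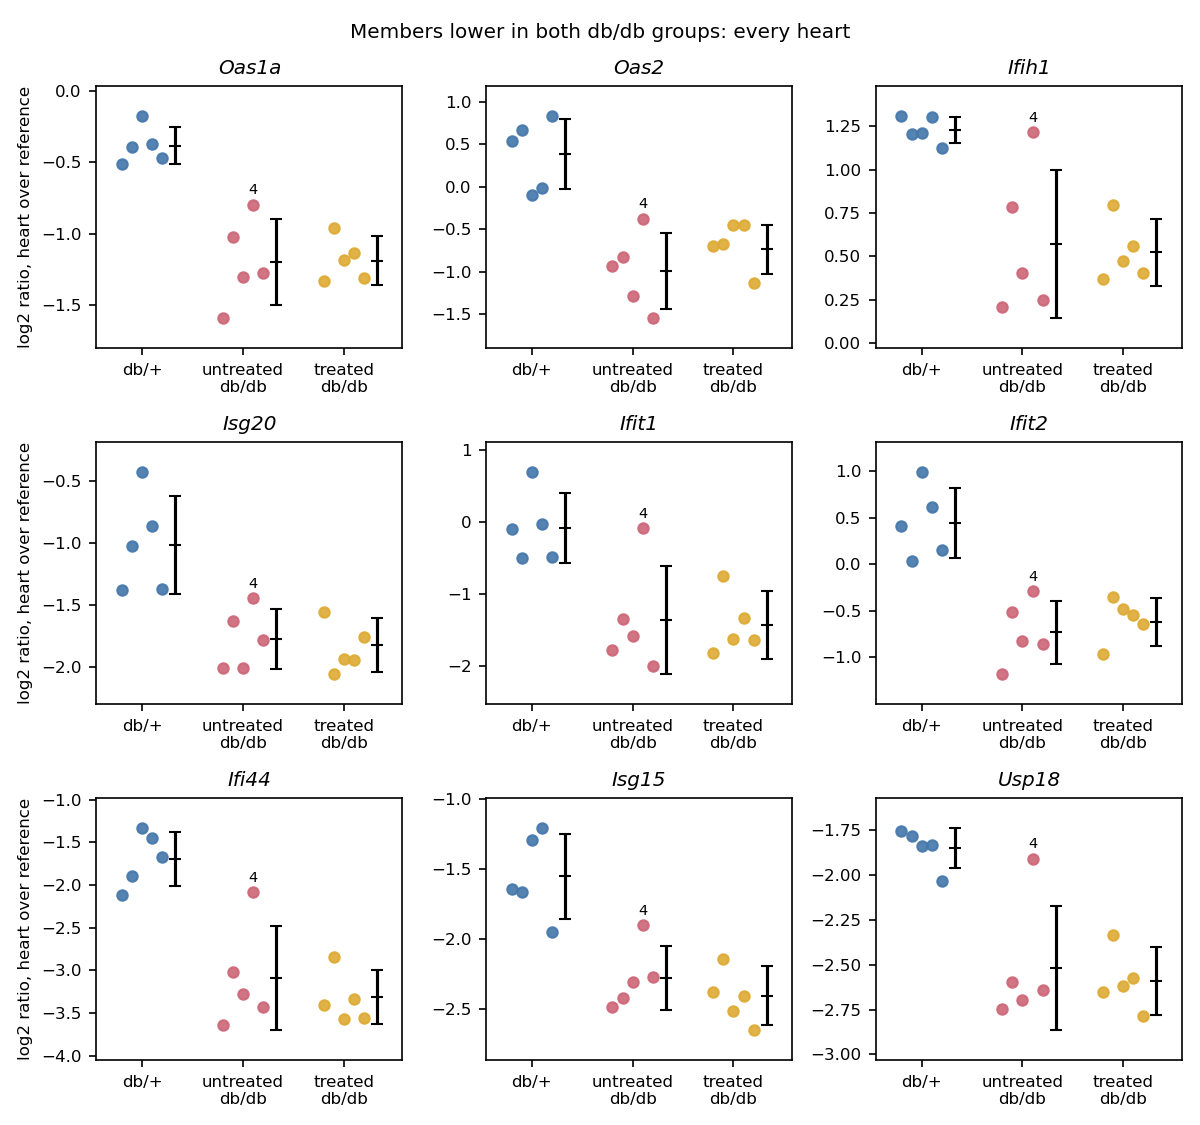
Log2 ratio of heart to reference RNA in each heart for the 9 members lower in both db/db groups, with the mean and SD beside each group (treated replicates 3 and 4 counted as 1 value, n = 4). The label 4 marks untreated replicate 4, the highest untreated heart for each of the 9 genes, which overlaps the db/+ range for Ifih1, Ifit1, Ifi44, Isg15 and Usp18.

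Among the 10 measured antiviral effectors, 6 were lower in untreated and 5 in treated db/db hearts, where 3.39% and 4.21% of all tested probes were. Their median log2 differences were -0.86 and -0.88. The Ifit genes, a cluster on chromosome 19, encode proteins that bind foreign RNA and block its translation. Ifit1 had log2 ratios of -0.10, -0.51, 0.69, -0.03 and -0.48 in the db/+ hearts, -1.78, -1.36, -1.58, -0.09 and -2.01 in the untreated db/db hearts, and -1.83, -0.75, -1.63, -1.34 and -1.65 in the treated db/db hearts. Untreated replicate 4 lay at the centre of the db/+ values while the other 4 untreated hearts and all treated hearts were below every db/+ heart. The log2 difference of Ifit1 was -1.28 ± 0.34 (SE, adjusted p = 0.0388) in untreated and -1.34 ± 0.36 (adjusted p = 0.037) in treated hearts. Ifit2 had log2 ratios of 0.41, 0.04, 0.99, 0.62 and 0.16 in the db/+ hearts, -1.18, -0.51, -0.82, -0.29 and -0.85 in the untreated db/db hearts, and -0.96, -0.35, -0.48, -0.54 and -0.64 in the treated db/db hearts. All db/db hearts were below all db/+ hearts, with log2 differences of -1.17 ± 0.20 (SE, adjusted p = 0.00405) and -1.06 ± 0.21 (adjusted p = 0.0099). A dimmer probe of Ifit2 was lower in untreated hearts too (adjusted p = 0.0476) but did not pass in treated hearts (adjusted p = 0.12), and with normexp and loess the brightest probe gave -0.76 (adjusted p = 0.0157) and -0.60 (adjusted p = 0.0564). Ifit3 was set apart by 1 heart. Its brightest probe read 0.28 to 0.57 in 4 untreated hearts and 3.12 in untreated replicate 4, above the db/+ range of 1.39 to 2.11, and neither log2 difference passed (-0.69 ± 0.44, SE, adjusted p = 0.346, and -1.01 ± 0.47, adjusted p = 0.184). A second probe annotated to Ifit3 gave log2 differences of -1.22 (adjusted p = 0.0142) and -1.02 (adjusted p = 0.0358), so the call for Ifit3 depends on the probe.

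Mx1 and Mx2, on chromosome 16, are dynamin-like GTPases that trap viral ribonucleoproteins. Mx1 had log2 ratios of 0.02, -0.01, -0.02, -0.04 and -0.01 in the db/+ hearts, -1.91, -2.66, -1.69, -0.16 and -1.36 in the untreated db/db hearts, and -0.75, -0.32, -0.61, -1.42 and -0.72 in the treated db/db hearts. The untreated and treated hearts were all below the db/+ hearts, in which heart and reference RNA gave nearly equal signals. Its probe was dim, with a mean heart signal of 67.3, and was above background on 4, 3 and 4 of the 5 arrays of the groups in this order. The log2 difference of Mx1 was -1.54 ± 0.33 (SE, adjusted p = 0.0143) in untreated hearts, and that of treated hearts, -0.69 ± 0.35 (adjusted p = 0.23), did not pass. With normexp and loess the difference in untreated hearts was -0.33 (adjusted p = 0.0278), so that its size depended on the background correction. Mx2 had log2 ratios of 0.81, 0.72, 0.40, 0.44 and 0.92 in the db/+ hearts, -0.30, -0.15, -0.10, 0.62 and -0.38 in the untreated db/db hearts, and -0.14, 0.35, 0.04, 0.07 and -0.16 in the treated db/db hearts. Only untreated replicate 4 overlapped the db/+ hearts, and the log2 difference was -0.72 ± 0.18 (SE, adjusted p = 0.0301) in untreated and -0.63 ± 0.19 (adjusted p = 0.0579) in treated hearts. With normexp and loess it was -0.44 in untreated hearts and did not pass (adjusted p = 0.118).

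Rsad2 (viperin) makes a chain-terminating nucleotide and Bst2 (tetherin) holds budding virions at the cell surface. Rsad2 had log2 ratios of 1.52, 1.33, 1.85, 1.79 and 1.82 in the db/+ hearts, 1.05, 1.42, 0.41, 1.71 and 0.59 in the untreated db/db hearts, and 0.53, 1.08, 0.84, 0.84 and 0.63 in the treated db/db hearts. The treated hearts were all below the db/+ hearts, and the untreated hearts overlapped them in replicates 2 and 4. Its log2 difference was -0.63 ± 0.22 (SE, adjusted p = 0.0992) in untreated hearts and passed in treated hearts at -0.89 ± 0.24 (adjusted p = 0.0348), although its other 2 probes did not pass (adjusted p = 0.204 and 0.277), nor did the same probe with normexp and loess, at -0.48 (adjusted p = 0.261). Bst2 had log2 ratios of -1.75, -1.40, -1.41, -1.36 and -1.85 in the db/+ hearts, -2.59, -2.07, -2.12, -1.35 and -2.17 in the untreated db/db hearts, and -2.58, -1.91, -2.72, -2.68 and -2.51 in the treated db/db hearts. The treated hearts were again all below the db/+ hearts, as were the untreated hearts except replicate 4, with log2 differences of -0.51 ± 0.21 (SE, adjusted p = 0.147) and -0.87 ± 0.22 (adjusted p = 0.0292). Both genes were thus called in treated hearts alone, and neither passed the test of treated against untreated hearts (adjusted p = 0.818 for Rsad2 and 0.693 for Bst2).

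Ifi44 and Ifi27 are interferon-induced proteins with less settled functions, and Ifi35 is an interferon-induced leucine zipper protein. Ifi44 had log2 ratios of -2.12, -1.89, -1.34, -1.45 and -1.68 in the db/+ hearts, -3.64, -3.02, -3.28, -2.09 and -3.42 in the untreated db/db hearts, and -3.41, -2.85, -3.57, -3.33 and -3.55 in the treated db/db hearts. Untreated replicate 4 touched the db/+ range and every other db/db heart was below it. The log2 differences of Ifi44, -1.40 ± 0.26 (SE, adjusted p = 0.00684) and -1.62 ± 0.28 (adjusted p = 0.00402), were among the largest of the members, and a second probe gave -1.44 and -1.53 (adjusted p = 0.0044 and 0.00454). The brighter probe was above background on 3 of the 5 treated arrays, and with normexp and loess its difference in treated hearts was -0.91 and did not pass (adjusted p = 0.129). Ifi27 had log2 ratios of 0.28, 0.58, 1.35, 0.78 and 0.51 in the db/+ hearts, -0.91, -0.15, 0.32, 0.04 and -0.82 in the untreated db/db hearts, and -0.04, 0.66, 0.12, 0.12 and -0.22 in the treated db/db hearts. Untreated replicate 3 and treated replicate 2 lay within the db/+ range and the others below it. All 3 probes annotated to Ifi27 were lower in untreated hearts (adjusted p = 0.0294 to 0.0457), the brightest with a log2 difference of -1.0 ± 0.26 (SE), and none passed in treated hearts, where the brightest gave -0.57 ± 0.28 (SE, adjusted p = 0.215). The accession of that probe now belongs to Ifi27l2a, and a probe for the gene now named Ifi27 had log2 differences of -0.15 (adjusted p = 0.622) and -0.31 (adjusted p = 0.308). Ifi35 had a mean log2 ratio of 0.14 ± 0.11 (SD, n = 5) in db/+, -0.09 ± 0.35 (SD, n = 5) in untreated and -0.29 ± 0.20 (SD, n = 4) in treated hearts, and its log2 differences of -0.22 ± 0.15 (SE, adjusted p = 0.375) and -0.42 ± 0.16 (adjusted p = 0.109) did not pass.

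Both members of the Isg15 system were lower in both comparisons, where 3.39% and 4.21% of all tested probes were lower. Isg15 is a ubiquitin-like protein that is joined to other proteins, and Usp18 removes it and also damps signalling at the type I interferon receptor. Isg15 had log2 ratios of -1.64, -1.66, -1.29, -1.21 and -1.95 in the db/+ hearts, -2.49, -2.42, -2.31, -1.90 and -2.27 in the untreated db/db hearts, and -2.38, -2.14, -2.51, -2.40 and -2.65 in the treated db/db hearts. The untreated range touched the db/+ range only through untreated replicate 4, and the treated range did not reach it. Its log2 differences were -0.73 ± 0.16 (SE, adjusted p = 0.0143) and -0.86 ± 0.17 (adjusted p = 0.00816). The array annotation places its only probe on chromosome 17, whereas RefSeq has the gene on chromosome 4, so this value rests on the accession of the probe. Usp18 had log2 ratios of -1.76, -1.78, -1.84, -1.83 and -2.04 in the db/+ hearts, -2.75, -2.59, -2.70, -1.91 and -2.64 in the untreated db/db hearts, and -2.65, -2.34, -2.62, -2.58 and -2.79 in the treated db/db hearts. Again untreated replicate 4 alone was within the db/+ values, the other 4 untreated hearts lying between -2.75 and -2.59. The log2 differences of Usp18 were -0.67 ± 0.15 (SE, adjusted p = 0.0169) and -0.74 ± 0.16 (adjusted p = 0.0132).

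**Figure D3:**
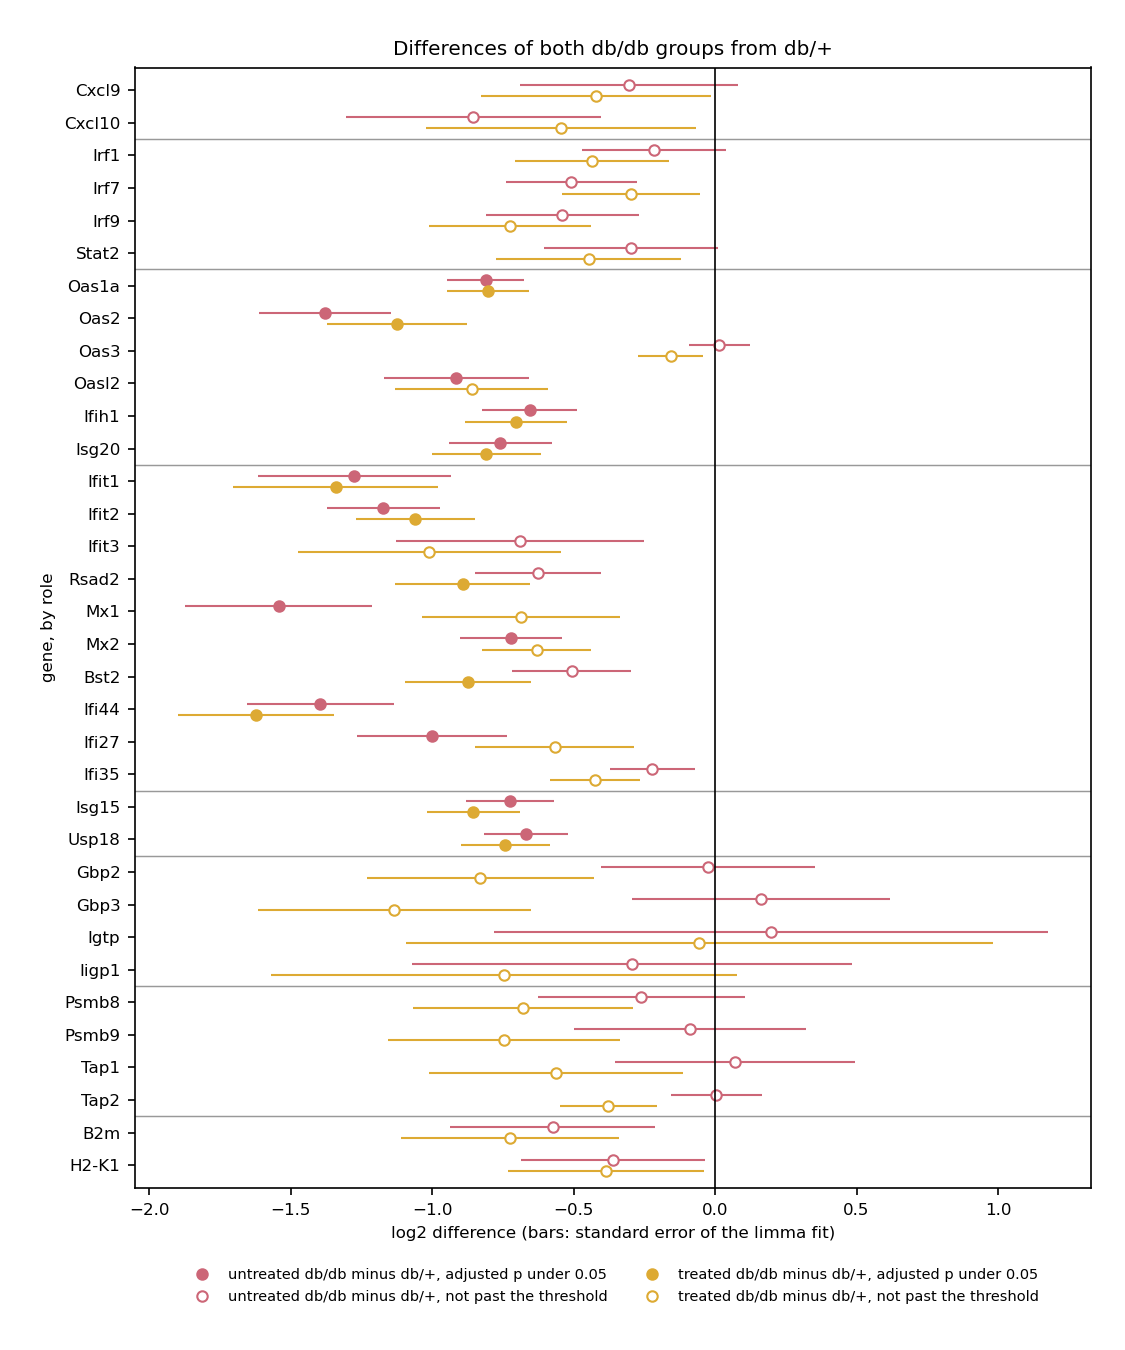
Log2 differences of untreated (red) and treated (yellow) db/db hearts from db/+ hearts for the 34 members by role, with the standard error of the limma fit. Filled points passed an adjusted p of 0.05. They are confined to the sensors, the antiviral effectors and the Isg15 system, 13 in untreated and 11 in treated hearts. Of all tested probes, 3.39% and 4.21% were lower in these comparisons.

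None of the 4 transcription factors and neither chemokine passed. Irf7, which raises type I interferon genes, and Irf9 and Stat2, which act together at the ISRE, had a common pattern. Irf7 had log2 ratios of -1.02, -1.11, -1.13, -0.98 and -1.12 in the db/+ hearts, -2.03, -1.85, -1.78, -0.55 and -1.69 in the untreated db/db hearts, and -1.39, -0.94, -1.66, -1.57 and -1.52 in the treated db/db hearts. Untreated replicate 4 was above all db/+ hearts and the other 4 untreated hearts were below them. Its log2 difference was -0.51 ± 0.23 (SE, adjusted p = 0.184) in untreated and -0.30 ± 0.24 (adjusted p = 0.467) in treated hearts. Irf9 had log2 ratios of 1.68, 1.35, 1.46, 1.35 and 1.36 in the db/+ hearts, 0.51, 0.85, 0.69, 1.97 and 0.47 in the untreated db/db hearts, and 0.19, 1.38, 0.74, 0.79 and 0.52 in the treated db/db hearts. Here too untreated replicate 4 exceeded every db/+ heart, and treated replicate 2 fell within them. The log2 differences were -0.54 ± 0.27 (SE, adjusted p = 0.229) and -0.72 ± 0.29 (adjusted p = 0.125). Stat2 had log2 ratios of 0.41, 0.30, 0.18, -0.14 and -0.05 in the db/+ hearts, -0.55, -0.11, -0.58, 1.14 and -0.70 in the untreated db/db hearts, and -0.75, 0.29, -0.54, -0.45 and -0.28 in the treated db/db hearts. Irf1, the factor that links interferon gamma to class I genes, had log2 ratios of 0.07, -0.06, -0.19, 0.12 and -0.01 in the db/+ hearts, -0.72, -0.12, -0.46, 0.70 and -0.57 in the untreated db/db hearts, and -1.05, 0.17, -0.45, -0.48 and -0.46 in the treated db/db hearts. For both genes the db/+ hearts were closer together than the hearts of either db/db group. Most db/db hearts lay below the db/+ range. Untreated replicate 4 lay above it for both genes, and treated replicate 2 for Irf1 alone. The log2 differences of Stat2 were -0.30 ± 0.31 (SE, adjusted p = 0.577) and -0.45 ± 0.33 (adjusted p = 0.407), and those of Irf1 were -0.22 ± 0.26 (SE, adjusted p = 0.633) and -0.44 ± 0.27 (adjusted p = 0.325). Without untreated replicate 4, Irf7 and Irf9 passed in untreated hearts (adjusted p = 0.00482 and 0.0274).

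Cxcl9 and Cxcl10 are chemokines that draw T cells through the receptor Cxcr3. Cxcl10 had log2 ratios of -2.09, -2.13, -3.10, -2.09 and -2.42 in the db/+ hearts, -4.17, -2.64, -3.23, -2.11 and -3.96 in the untreated db/db hearts, and -4.10, -1.90, -2.21, -2.34 and -3.37 in the treated db/db hearts. The db/db hearts ranged from within or just above the db/+ values to far below them, and the log2 differences of -0.86 ± 0.45 (SE, adjusted p = 0.253) and -0.55 ± 0.48 (adjusted p = 0.498) were not larger than this spread. Cxcl9 had log2 ratios of 5.28, 4.63, 6.26, 4.83 and 5.26 in the db/+ hearts, 4.25, 5.84, 4.90, 5.69 and 4.05 in the untreated db/db hearts, and 4.23, 4.75, 5.77, 4.92 and 4.99 in the treated db/db hearts. Its groups overlapped over most of their range, at log2 differences of -0.30 ± 0.38 (SE, adjusted p = 0.659) and -0.42 ± 0.41 (adjusted p = 0.544).

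The interferon-inducible GTPases act on the membranes around intracellular pathogens, and none of the 4 passed. Their median log2 difference was 0.07 in untreated and -0.79 in treated db/db hearts. Igtp, an immunity-related GTPase, had log2 ratios of 2.64, 1.32, 2.06, 2.26 and 1.54 in the db/+ hearts, 0.50, 2.12, 1.24, 6.35 and 0.59 in the untreated db/db hearts, and 0.05, 3.79, 1.30, 1.30 and 2.50 in the treated db/db hearts. The untreated replicate 4 value of 6.35 was far above all other hearts, and treated replicate 2 was the next highest. The log2 difference of Igtp was 0.20 ± 0.98 (SE, adjusted p = 0.927) in untreated and -0.06 ± 1.04 (adjusted p = 0.981) in treated hearts, so its error exceeded its size several times. Iigp1, of the same family, had log2 ratios of 5.34, 3.98, 5.57, 5.50 and 4.37 in the db/+ hearts, 3.33, 4.71, 4.0, 7.78 and 3.48 in the untreated db/db hearts, and 2.58, 5.66, 3.85, 4.10 and 4.62 in the treated db/db hearts. The same 2 hearts were again the highest of all 15, at log2 differences of -0.29 ± 0.78 (SE, adjusted p = 0.853) and -0.75 ± 0.82 (adjusted p = 0.6). Gbp2 and Gbp3 are guanylate-binding proteins, neighbours on chromosome 3. Gbp2 had log2 ratios of 0.02, 0.26, 0.63, 0.99 and 0.41 in the db/+ hearts, -0.34, 0.66, 0.23, 1.75 and -0.12 in the untreated db/db hearts, and -1.06, 0.61, -0.56, -0.56 and -0.46 in the treated db/db hearts. Gbp3 had log2 ratios of -2.42, -1.83, -1.20, -1.17 and -0.75 in the db/+ hearts, -2.21, -1.08, -1.0, -0.30 and -1.97 in the untreated db/db hearts, and -2.89, -1.18, -3.46, -2.95 and -3.18 in the treated db/db hearts. For Gbp3 the treated hearts other than replicate 2 were below every other heart. The log2 differences were -0.03 ± 0.38 (SE, adjusted p = 0.974) and -0.83 ± 0.40 (adjusted p = 0.204) for Gbp2, and 0.16 ± 0.46 (SE, adjusted p = 0.861) and -1.13 ± 0.48 (adjusted p = 0.152) for Gbp3.

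The class I genes did not pass either. Psmb8 and Psmb9 are immunoproteasome subunits that cut proteins into peptides, and Tap1 and Tap2 form the transporter that carries the peptides into the endoplasmic reticulum. All 4 genes lie together on chromosome 17. Psmb8 had log2 ratios of 0.08, -0.25, 0.08, 0.20 and -0.39 in the db/+ hearts, -1.12, -0.16, -0.61, 1.11 and -0.82 in the untreated db/db hearts, and -1.34, 0.13, -0.81, -0.88 and -0.89 in the treated db/db hearts. Psmb9 had log2 ratios of 0.39, 0.03, 0.49, 0.65 and 0.15 in the db/+ hearts, -0.72, 0.24, -0.13 and 1.62 in the untreated db/db hearts, and -1.13, 0.50, -0.54, -0.47 and -0.51 in the treated db/db hearts, the value of untreated replicate 5 being left out for an outlier flag. In both genes untreated replicate 4 was the highest and treated replicate 1 the lowest of all hearts. The log2 differences were -0.26 ± 0.37 (SE, adjusted p = 0.697) and -0.68 ± 0.39 (adjusted p = 0.284) for Psmb8, and -0.09 ± 0.41 (SE, adjusted p = 0.921) and -0.75 ± 0.41 (adjusted p = 0.265) for Psmb9. Tap1 had log2 ratios of 0.19, -0.55, -0.62, -0.24 and -0.56 in the db/+ hearts, -1.10, -0.05, -0.64, 1.09 and -0.74 in the untreated db/db hearts, and -1.90, 0.33, -1.06, -0.85 and -1.17 in the treated db/db hearts. Tap2 had log2 ratios of -1.56, -1.69, -1.18, -1.59 and -1.77 in the db/+ hearts, -1.78, -1.56, -1.76, -1.05 and -1.61 in the untreated db/db hearts, and -2.13, -1.54, -2.22, -1.89 and -2.02 in the treated db/db hearts. Tap2 varied least from heart to heart of these 4 genes. The log2 differences were 0.07 ± 0.42 (SE, adjusted p = 0.94) and -0.56 ± 0.45 (adjusted p = 0.451) for Tap1, and 0.0 ± 0.16 (SE, adjusted p = 0.989) and -0.38 ± 0.17 (adjusted p = 0.177) for Tap2.

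B2m is the light chain of every class I molecule and H2-K1 is a classical heavy chain. B2m had log2 ratios of 0.67, -0.44, 0.06, 0.17 and -0.32 in the db/+ hearts, -1.37, -0.45, -0.63, 0.71 and -1.01 in the untreated db/db hearts, and -1.43, 0.03, -0.55, -0.48 and -0.88 in the treated db/db hearts. H2-K1 had log2 ratios of 1.57, 0.51, 0.72, 0.83 and 0.71 in the db/+ hearts, -0.12, 0.63, 0.16, 1.67 and 0.19 in the untreated db/db hearts, and -0.03, 1.22, 0.44, 0.53 and 0.26 in the treated db/db hearts. The untreated hearts of both genes covered the whole db/+ range, with replicate 4 highest, and the treated hearts overlapped it, with replicate 2 highest. The log2 differences were -0.57 ± 0.36 (SE, adjusted p = 0.342) and -0.72 ± 0.39 (adjusted p = 0.248) for B2m, and -0.36 ± 0.33 (SE, adjusted p = 0.519) and -0.39 ± 0.35 (adjusted p = 0.508) for H2-K1. Class I heavy chains are nearly alike in sequence and their probes can bind each other's RNA, and the other 2 probes of H2-K1 gave log2 differences of 0.11 and 0.02 in untreated hearts.

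No member passed the test of rosiglitazone-treated against untreated db/db hearts. None was higher and none lower, where 0% of all tested probes were higher and 0% lower, and 3 of the 34 (Mx1, Gbp3 and Tap2) had an unadjusted p under 0.05, against 8.78% of all tested probes, a share near that of the members. For the 15 members called in a comparison with db/+, the log2 differences between treated and untreated hearts ran from -0.37 to 0.86, and their 95% confidence intervals from -0.85 to 1.61. That of Oas1a was 0.01, with an interval of -0.30 to 0.32, and that of Ifit1 was -0.07, with an interval of -0.85 to 0.71. Mx1 had the highest of them, 0.86 ± 0.35 (SE, adjusted p = 0.521). Among the GTPases, Gbp3 was at -1.30 ± 0.48 (SE, adjusted p = 0.48) with an interval of -2.34 to -0.26. The median over the members was -0.15, against -0.01 for all tested probes, and it was 0.10 without untreated replicate 4, so its sign rested on that heart.

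Members varied together from heart to heart. The mean of the 34 members, each centred on its mean over the 14 samples, was 0.45, 0.24, 0.54, 0.49 and 0.29 on the log2 scale in the db/+ hearts. It was -0.69, -0.08, -0.36, 0.91 and -0.57 in the untreated db/db hearts. It was -0.72, 0.25, -0.36 (replicates 3 and 4 averaged) and -0.42 in the treated hearts. The db/+ hearts thus had an SD of 0.13, the untreated hearts 0.64 and the treated hearts 0.41. Untreated replicate 4 was the highest of its group for 31 of the 34 members and above the db/+ mean for 21, and treated replicate 2 was the highest of its group for 30. Both were on slide 3, together with untreated replicate 5 and treated replicate 1, whose means were -0.57 and -0.72. Over deviations from the group means in the 14 samples, the 561 pairs of members had a median correlation of 0.71, and 542 were above 0. Without untreated replicate 4 the median was 0.52, with 478 above 0. These correlations share arrays and normalization and are given as a description. Psmb8 followed the mean of the other members most closely (r = 0.99), and Oas3 (0.04), Isg20 (0.26) and Oas2 (0.37) least.

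**Figure D4:**
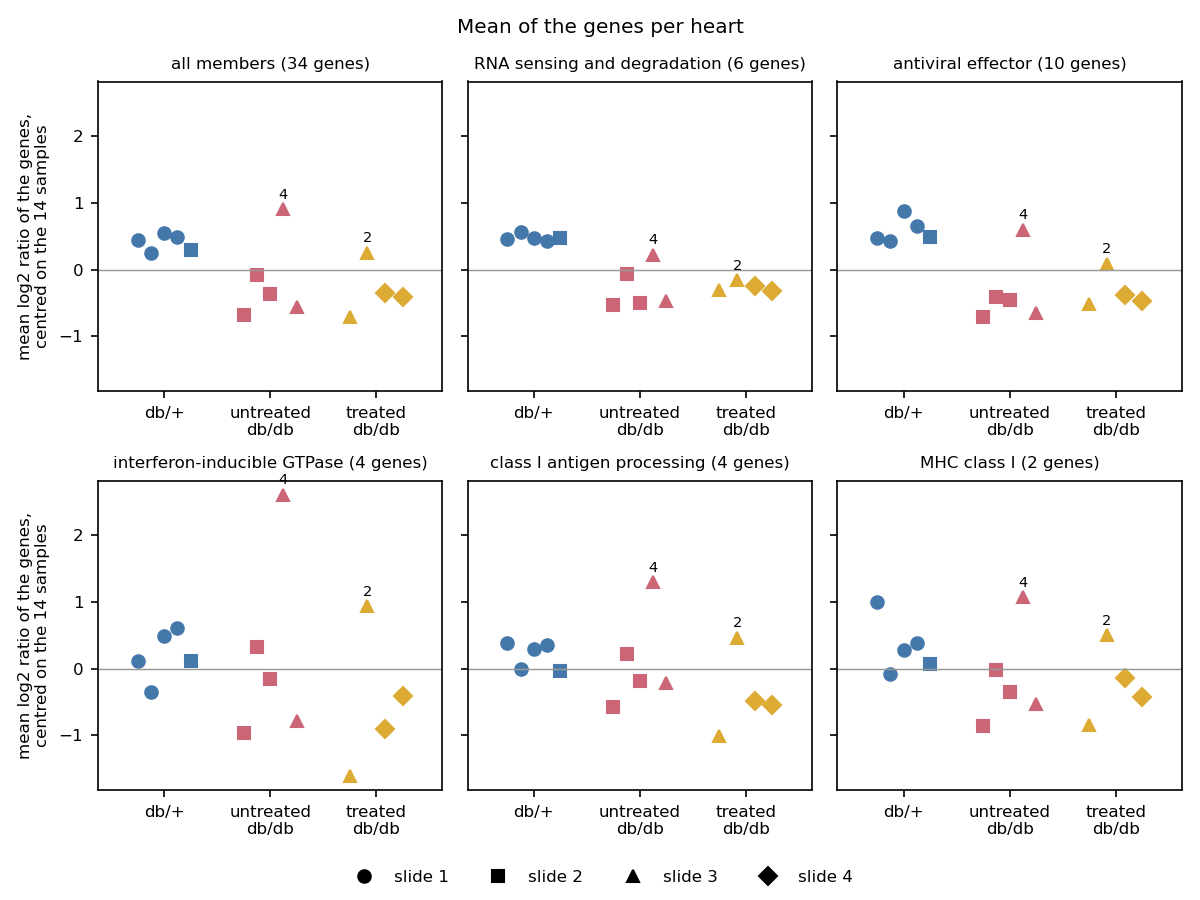
Mean log2 ratio per heart of all 34 members and of 5 of the roles, each gene centred on its mean over the 14 samples, with 1 point per sample and the marker giving the slide. Untreated replicate 4 and treated replicate 2 are labelled. In the GTPase panel they reach 2.61 and 0.94, whereas the sensors of treated replicate 2 stay at -0.16, below every db/+ heart.

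The spread differed between roles. For the 6 sensors and RNA-degrading enzymes the mean was 0.43 to 0.56 in db/+ hearts, -0.54 to 0.22 in untreated and -0.33 to -0.16 in treated hearts, with no overlap between db/+ and either group. For the 10 antiviral effectors it was 0.42 to 0.88, -0.72 to 0.60 and -0.52 to 0.09. For the 4 GTPases it was -0.35 to 0.61, -0.96 to 2.61 and -1.61 to 0.94, and for the 4 genes of class I processing -0.04 to 0.38, -0.57 to 1.30 and -1.02 to 0.46. Without untreated replicate 4 all 34 members were below db/+ in untreated hearts, with a median log2 difference of -0.82. Of the effectors, 9 of 10 were then lower, and of the transcription factors 2 of 4, where 2.82% of all tested probes were lower, while the GTPases, class I processing and MHC class I genes still gave 0 calls. Whether the roles differ from each other was not tested.

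Upstream of the members, 2 of 7 receptor chains and kinases were lower in untreated hearts, where 3.39% of all tested probes were, and 1 in treated hearts, where 4.21% were. Their median log2 differences were -0.09 and -0.10. Jak1, the kinase shared by all interferon receptors, was lower in untreated (-0.40 ± 0.10, SE, adjusted p = 0.0276) and in treated db/db hearts (-0.44 ± 0.10, adjusted p = 0.0205) on the log2 scale, with no overlap of either group with db/+. Ifngr2, a chain of the interferon gamma receptor, was lower in untreated hearts (-0.38 ± 0.09, SE, adjusted p = 0.0231) and gave -0.27 ± 0.10 in treated hearts (adjusted p = 0.0927). The log2 differences of the other receptor chains in untreated hearts were -0.13 ± 0.09 for Ifnar1, -0.09 ± 0.08 for Ifnar2 and -0.06 ± 0.09 for Ifngr1 (SE), and none passed, nor did Jak2 (-0.04) or Tyk2 (0.25). Of 10 further transcription factors and inhibitors of the pathway, none passed in either comparison. The interferons could hardly be read, since Ifnb1, Ifng, Ifna4, Ifne and Ifnk were below the filter on dim probes, and the 2 that were tested, Ifna2 and Ifnl3, did not pass.

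Of 13 further nucleic acid sensors and adaptors, 2 were lower in untreated and 1 in treated hearts, against the same shares of all tested probes, and their median log2 differences were 0.01 and -0.04. Dhx58 (LGP2), a partner of Ifih1, was lower in untreated (-0.63 ± 0.16, SE, adjusted p = 0.0332) and treated hearts (-0.63 ± 0.17, adjusted p = 0.0396), and Sting1, the adaptor of cytosolic DNA sensing, in untreated hearts (-0.43 ± 0.12, SE, adjusted p = 0.0486). Of 27 other induced effectors measured, 6 were lower in untreated db/db hearts, where 3.39% of all tested probes were lower and 4.37% higher, and 5 in treated hearts, where 4.21% were lower and 4.49% higher, and none was higher. Their median log2 differences were -0.38 and -0.53. Ifi203, a DNA-binding protein of the p200 family, was lower in both groups, with log2 differences of -0.96 and -1.08 (adjusted p = 0.000721 and 0.000425). Sp100, a nuclear body protein, was likewise lower, at -0.83 and -0.64 (adjusted p = 0.000559 and 0.00476). Trim30a, a negative regulator of Toll-like receptor signalling, was lower at -0.95 and -0.96 (adjusted p = 0.00589 and 0.0075), and Phf11d at -1.03 and -1.24 (adjusted p = 0.00842 and 0.00426). These 4 genes, named because they passed, had no overlap between db/+ and either db/db group. The share of all tested probes without such overlap was not counted. Samd9l and the membrane protein Ifitm3, which blocks viral fusion, were lower in untreated hearts (adjusted p = 0.0476 and 0.0486), and Cmpk2, a mitochondrial nucleotide kinase, in treated hearts (adjusted p = 0.0435). None of 8 other induced GTPases passed. Of 19 other class I genes, only Pdia3, a chaperone of the peptide-loading complex, was lower (-0.51 and -0.46, adjusted p = 0.0141 and 0.0264). This count of 1 of 19 is near the 3.39% and 4.21% of all tested probes that were lower.

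Several lists of blood and fat cell markers had lower means in db/db hearts, and their part in the member values was not tested. In untreated and treated hearts, 3.39% and 4.21% of all tested probes were lower than in db/+ hearts. The neutrophil list went the other way, with no call among the 3 markers tested. Its mean was -0.93 to 0.10 in db/+ hearts, -0.30 to 0.81 in untreated and -0.25 to 1.44 in treated hearts. Cardiomyocyte (10 tested), endothelial (7) and macrophage markers (8) gave no call in either comparison with db/+. Of 5 B cell markers tested, 3 were lower in each db/db group, Ms4a1 and Cd79b among them, Ms4a1 with log2 differences of -1.94 and -1.79 (adjusted p = 0.000276 and 0.000679), while Cd79a gave 0.09 and 0.56 without passing and Blk was below the filter. The mean of the B cell list was 0.12 to 0.82 in db/+ hearts, -0.60 to -0.06 in untreated and -0.37 to -0.19 in treated hearts, and untreated replicate 4, high for the members, was at -0.18. Of 9 T or NK cell markers, Gzma was lower in both (-2.32 and -2.45, adjusted p = 0.0089 and 0.0087) and Cd3d in treated hearts. The other 8 in untreated and 7 in treated hearts were not called. Among the 9, 2 log2 differences in untreated and 1 in treated hearts were above 0, the highest being 0.31 and 0.12. The mean of the T or NK list was 0.11 to 0.58 in db/+ hearts, -0.52 to 0.48 in untreated and -0.68 to 0.10 in treated hearts, with its highest db/db value in untreated replicate 4. The 4 pan-leukocyte markers ranged from -0.03 to 0.50, -0.72 to 0.38 and -0.34 to 0.28, again with untreated replicate 4 and treated replicate 2 highest of their groups. Cd52 and Coro1a were lower in treated hearts, and Ptprc and Laptm5 were called in neither db/db group. The highest log2 difference of this list in treated hearts was 0.39. Plasmacytoid dendritic cells make much type I interferon. Of the 4 markers of this list tested, Tcf4 was lower in both groups and the member Bst2 in treated hearts, while Ccr9 and Irf8 were called in neither. The highest log2 difference of the list was -0.09 in untreated hearts and 0.39 in treated hearts, where 1 of the 4 was above 0. Its defining marker Siglech was above background on 1 db/+ array and on no db/db array and was not tested. The adipocyte list had a mean of 0.22 to 1.85, -0.91 to 0.54 and -0.94 to -0.60 in the groups in this order. In untreated replicate 4 and treated replicate 2, both high for the members, it was -0.73 and -0.60. Adipoq and Cfd were lower in both db/db groups, Plin1 and Fabp4 were called in neither, and Lep was below background on all arrays. The highest log2 difference of the adipocyte list was -0.05 in untreated and 0.47 in treated hearts. Apoa2 and Ahsg, of the hepatocyte list, were higher in untreated hearts (log2 differences 2.26 and 0.96, adjusted p = 0.027 and 0.0464), and the hepatocyte mean of untreated replicate 4 was -0.06, the lowest of its group.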

How the data were processed

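RNA from 15 mouse hearts, 5 per group, was hybridized to Agilent 2-colour arrays. Per the labels the authors scanned the arrays and extracted them with Feature Extraction 9.5.1 (9.5.1.1 per the file headers), which subtracted background and normalized the dyes by its own settings. The deposited scanner files give heart (Cy5) and reference (Cy3) intensity and a log10 ratio for each of 45018 spots, 43379 of them not controls. The deposited series table, which holds the same log10 ratios, served as an alternative. The log10 ratio deposited by the authors was turned to log2 here, the scale of all values given, outlier-flagged spots were left out (3656 probe values), and spots of 1 probe were averaged, which gave 41174 probes. Probes well above background in the heart channel on at least 4 arrays of a group were tested. No dyes were swapped, so a dye bias of a probe is part of each ratio, and cancels in a difference between hearts. The number of arrays limits the precision, and no read depth applies.

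Groups were compared with limma 3.58.1 (R 4.3.3, statmod 1.5.0, data.table version 1.17.8), with 1 mean per group over all 14 samples and Benjamini-Hochberg adjustment over all tested probes, at a threshold of 0.05. Scripts were tested on simulated data. Ranges of groups that do not overlap were counted over the 14 samples, with treated replicates 3 and 4 averaged. The share of all tested probes without such overlap was not counted. Where a list mean is given, genes were centred on their mean over the samples. The genes and lists were chosen with earlier results of these data known. Values in every heart are given for members past the threshold in any comparison and for up to 4 per role by smallest p. Other pathway genes are named where they passed, at most 6 a list, with the receptor chains and the kinases always. Some genes of these lists are not reported here. Alternatives were other background correction and normalization, other filters and thresholds, the mean over the probes of a gene, slide or replicate number as a block, the 2 groups compared alone, the series table, treated replicates 3 and 4 as separate mice, and each heart left out. Keeping outlier-flagged spots was added after seeing the data. Promoter matches were searched with Python.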

Additional observations from a re-analysis of the deposited data

Results flagged for a closer look

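In 9 of 102 sets of hearts (34 members in 3 groups), Dixon's test for a single stray value set 1 heart apart. Chance gives about 1 in 20 for a single set. The members varied together over the same hearts, so the 102 sets are not independent and 1 high heart can flag several members. Each stray value was the highest of its group and belonged to untreated replicate 4 or treated replicate 2, both on slide 3. In untreated replicate 4 the log2 ratio of Irf7 was -0.5463, with the other 4 untreated hearts between -2.03 and -1.69. Irf9 was at 1.9687 there, with the others between 0.47 and 0.85. Ifit3 was at 3.1219 (others 0.28 to 0.57) and Igtp at 6.3521 (others 0.50 to 2.12). Mx2 was at 0.6171 (others -0.38 to -0.10), Ifi35 at 0.5077 (others -0.33 to -0.09) and Usp18 at -1.9105 (others -2.75 to -2.59). In treated replicate 2, Oasl2 was at -0.0298 (others -0.79 to -0.70) and Gbp3 at -1.1752 (others -3.20 to -2.89). Why these hearts stood apart was not tested.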

How the results depend on the processing

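With slide as a fixed block, the number of members lower fell from 13 to 0 for the untreated and from 11 to 0 for the treated group, each set against db/+. A fit on only the 2 groups compared gave 7 in untreated hearts, and normexp background correction with loess gave 4 in treated hearts. Leaving out each heart in turn gave 7 to 18 members lower in untreated hearts (7 without untreated replicate 1 or 5, 8 without untreated replicate 3 or db/+ replicate 4) and 5 to 16 in treated hearts (5 without treated replicate 5, 6 without db/+ replicate 4, 7 without treated replicate 1). The member medians then ran from -0.82 to -0.42 for the untreated and from -0.91 to -0.56 for the treated group set against db/+, and from -0.29 to 0.10 in treated against untreated hearts. The cause of these shifts was not tested. Under the other alternatives these counts stayed within 1.5 times. No call changed sign in any alternative. The size of a call moved by over 1.5 times with normexp for Ifih1 (-0.66 to -0.24), Ifit2 (-1.17 to -0.76), Mx1 (-1.54 to -0.33) and Mx2 (-0.72 to -0.44) in untreated and Ifih1, Ifit2, Rsad2 and Ifi44 in treated hearts, and with the fixed slide block for Mx2 and Isg15 in untreated hearts. Of 24 calls of single members, the fixed slide block lost 24, normexp 10, no filter 6, the fit on 2 groups 6, the mean over probes 3 and scale normalization 1, and leaving out hearts lost 61 of 360. Slide as a random block, separate mice and the added keeping of outlier-flagged spots lost 0. The stricter filter also lost 0 of the 21 calls it kept in the test. The random block was fitted with a correlation within slides of -0.114, so it did not take out slide differences as the fixed block did. The looser threshold could lose no call, and the series table, which holds the same log10 ratios, lost 0. Neither is a check on the calls.

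Replicate numbers did not pair the hearts, since the 15 same-number pairs correlated at -0.189 to 0.0472 in their deviations from the group means. The fit with the replicate block gave 12 members lower than in db/+ for each of the db/db groups and 0 between the db/db groups, and lost 1 call (Mx2). Signal over background limited Mx1, whose probe was above background on 4, 3 and 4 of the 5 arrays of the db/+, untreated and treated groups, and Ifi44, above it on 3 of the 5 treated arrays.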
